A study of Mus musculus with 6 samples.

Results

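Genes of the 2-cell embryo were examined in mouse embryonic stem cells, namely Zscan4c, Zscan4d, Zscan4f, Tcstv1, Tcstv3, Zfp352, Usp17lc, Usp17ld and Tdpoz4. They were listed by name as known 2-cell stage genes, with no measured value in the rule, and are 9 of the 27706 protein-coding and lincRNA genes of the annotation. What was measured at them was the acetylation of lysine 27 of histone H3 (H3K27ac), a mark of active promoters and enhancers, by chromatin immunoprecipitation and sequencing (ChIP-seq).

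The study asked whether this mark depends on transcription. Cells of the E14 line (E14Tg2A) of mouse embryonic stem cells (mESCs) were treated for 120 min with the solvent DMSO (Control), with 100 nM NVP-2, which inhibits the elongation kinase CDK9, or with actinomycin D (ActD, 800 nM in the labels), which binds DNA and blocks RNA polymerases. Each of these 3 conditions had 2 replicates, and chromatin of the human line HEK293 was added to all 6 libraries as a spike-in. All cells were kept in N2B27 medium with LIF and the inhibitors PD0325901 and CT-99021, and all carried Rosa26-Cre and Oct4-IRES-Puro, so that the control was itself an engineered line under 2 inhibitors. The study calls the replicates biological replicates.

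The values below come from the list of H3K27ac peaks in Control cells, which the authors called on both replicates together. It gives the start and end of 22973 peaks on 21 chromosomes (mm10) and no heights, so the depth behind a peak is unknown, no value has a replicate error, and treated cells were not analysed here. The peaks had a median width of 2068 bp. A gene was counted as marked when a peak overlapped the window of ±1 kb around its transcription start site (TSS) by at least 1 bp. As a check of the labelled cell type, promoters of 6 of 8 genes of the pluripotent state were marked (75%, 95% Wilson interval 40.9 to 92.9%), among them Pou5f1, Nanog and Sox2. As 41.7% of all genes were marked, this count does not by itself show the cell type. Esrrb and Klf4 were unmarked, with a nearest peak 33.7 and 14.7 kb away.

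The mouse embryo begins transcription of its own genome mainly at the 2-cell stage, when a set of genes and retroviral elements is switched on for a short time. In cultures of mESCs a small minority of cells passes through a state in which these genes are expressed again, driven by the transcription factor Dux, while chromatin repressors hold them silent in the other cells. Many of the genes belong to young families that lie as near-identical copies side by side, and a sequencing read that matches several copies equally well receives a low mapping quality and is lost at a filter such as the one applied to these libraries.

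To show how alike such copies are, the promoters of a pair of Zscan4 genes and a pair of Usp17l genes are given from RefSeq (GRCm38.p6), 250 bases before to 50 bases after the annotated start, on the strand of the gene. Capitals mark TATAAA, the letters of a TATA box. Zscan4c lies at chr7:11005495-11005794 (plus strand) and Zscan4d at chr7:11166099-11166398 (minus strand). Usp17lc lies at chr7:103416446-103416745 (plus strand) and Usp17ld at chr7:103252456-103252755 (minus strand).
Zscan4c: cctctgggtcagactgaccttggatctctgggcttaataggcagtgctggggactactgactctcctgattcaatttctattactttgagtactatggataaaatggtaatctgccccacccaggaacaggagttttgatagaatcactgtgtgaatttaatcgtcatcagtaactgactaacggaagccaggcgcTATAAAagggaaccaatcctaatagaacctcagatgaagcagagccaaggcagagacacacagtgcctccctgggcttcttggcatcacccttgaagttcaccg
Zscan4d: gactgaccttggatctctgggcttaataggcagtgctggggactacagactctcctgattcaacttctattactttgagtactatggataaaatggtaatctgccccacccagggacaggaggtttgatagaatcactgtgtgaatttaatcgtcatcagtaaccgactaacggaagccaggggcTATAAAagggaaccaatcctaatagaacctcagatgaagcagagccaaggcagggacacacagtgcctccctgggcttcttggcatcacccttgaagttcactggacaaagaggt
Usp17lc: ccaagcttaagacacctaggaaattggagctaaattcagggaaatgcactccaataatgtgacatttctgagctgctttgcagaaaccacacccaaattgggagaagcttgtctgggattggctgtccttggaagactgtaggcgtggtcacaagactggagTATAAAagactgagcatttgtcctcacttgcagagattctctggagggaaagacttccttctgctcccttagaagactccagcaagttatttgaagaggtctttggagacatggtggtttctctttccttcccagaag
Usp17ld: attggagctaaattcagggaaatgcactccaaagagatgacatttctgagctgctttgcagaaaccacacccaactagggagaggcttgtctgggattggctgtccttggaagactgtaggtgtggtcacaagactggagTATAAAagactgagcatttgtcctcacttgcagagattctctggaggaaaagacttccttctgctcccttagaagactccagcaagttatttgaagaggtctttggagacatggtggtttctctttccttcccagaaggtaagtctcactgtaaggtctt

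The Zscan4c and Zscan4d promoters were 97.2% identical, with 8 differing bases of 289 aligned, and the promoter of Zscan4f differed from that of Zscan4c at only 2 of 277 aligned bases (99.3%). The Usp17lc and Usp17ld promoters were 96.8% identical, with 9 differing bases of 278. Over the ±1 kb windows around the GENCODE starts, which were used for the counts below, this pair was 79.4% identical over the 82.9% of the window that aligned. The RefSeq start of Usp17lc lies 1624 bp from the GENCODE start. TATAAA was present, on either strand, in 5 of the 7 promoters found in the RefSeq table used here, which were those of the 3 Zscan4 and the 2 Usp17l genes, against 13.6% of all 32851 RefSeq promoters. It began 54 bases before the start of Zscan4c, 65 before that of Zscan4d and 31 before that of Zscan4f. At Usp17lc and Usp17ld it began 88 and 110 bases before the RefSeq start. Except at Zscan4f, these distances are longer than is usual for a TATA box. The same 5 promoters held CCAAT on either strand, present in 37.4% of all promoters, and none of the 7 held GGGCGG, the core of a GC box, which 35.7% of all promoters held. Because members of a family share their sequence, these counts do not come from independent promoters. Promoters of Tcstv1 and Tcstv3 were not in the RefSeq table used here.

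None of the 9 promoters overlapped a Control peak, against 41.7% of all genes tested and 48.8% of the 21853 protein-coding genes. With 0 of 9, shares of up to 33.3% stay possible by a limit of 3 counts, and up to 29.9% by the 95% Wilson interval, which covers counting error only. A peak within 50 kb of the TSS was present for 3 of 9 (Tcstv1, Zfp352 and Tdpoz4), or 33.3% (12.1 to 64.6%), against 67.3% of all genes tested. The median distance from the TSS to the nearest edge of a peak was 772 kb, with a range of 6.96 to 1313 kb, against a median of 9.71 kb over all genes and 2.16 kb over protein-coding genes. In bulk chromatin, fewer cells carrying the mark and less of the mark in each cell cannot be told apart, and whether a peak at these genes was lost to the mapping-quality filter, to the authors' height thresholds or to the required nearness to open chromatin was not tested.

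**Figure D1:**
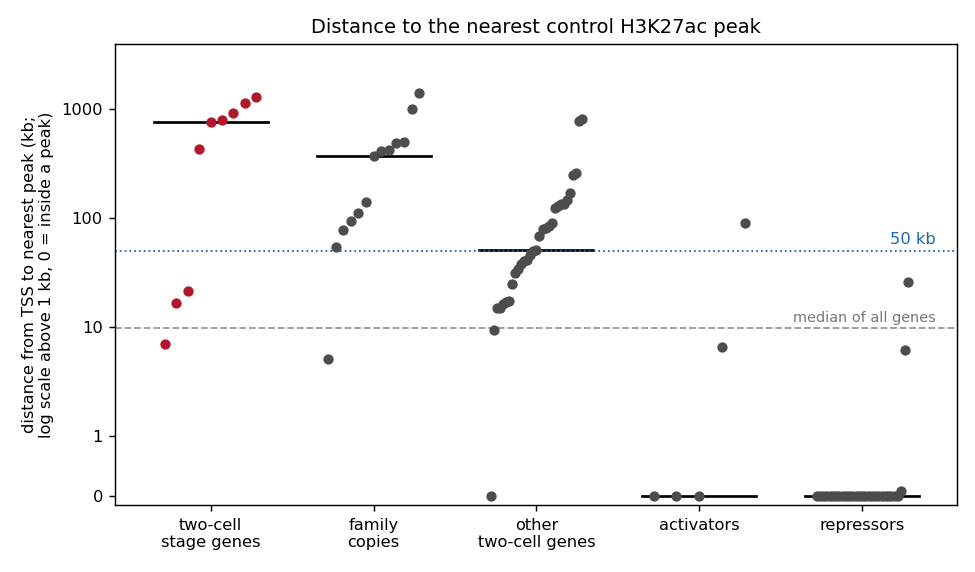
Distance in kb from the TSS to the nearest edge of a Control H3K27ac peak (vertical axis, logarithmic above 1 kb), with 1 point per gene and the median of each gene list as a black bar. The 9 two-cell stage genes range from 6.96 to 1313 kb, with 3 under the dotted line at 50 kb and none at 0, whereas most repressors sit at 0; the dashed line is the median of all genes, 9.71 kb.

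Zscan4c, Zscan4d and Zscan4f encode zinc finger proteins with a SCAN domain that are known for the lengthening of telomeres in mESCs. Zscan4c (ENSMUSG00000054272.6, chr7:11005745-11010547, plus strand, 4 exons) had its nearest peak 1313 kb away, the longest distance of the 9 genes. Zscan4d (ENSMUSG00000090714.10, chr7:11161374-11166159, minus strand) followed with 1152 kb and Zscan4f (ENSMUSG00000070828.10, chr7:11397915-11402318, plus strand) with 920 kb. For all 3 it was the same peak, chr7:12318349-12320369, within Vmn1r83, which encodes a vomeronasal receptor. In the other direction the next peak lay at chr7:7298550-7299652, in the chloride channel gene Clcn4, 3706 kb from Zscan4c. The 3 genes thus share a single stretch of 5.02 Mb without a peak, the 5th longest of the 22952 gaps between neighbouring peaks, whose median was 26.7 kb. Only 0.996% of the stretch is unassembled sequence. It contains the starts of 50 protein-coding genes, of which 8 have a Zscan4 symbol (3 of these named as pseudogenes, Zscan4-ps1, Zscan4-ps2 and Zscan4-ps3), 17 are Vmn1r and 23 are Vmn2r vomeronasal receptors, and the remaining 2 are Zik1 and Nlrp4b.

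Usp17lc and Usp17ld encode deubiquitinases, enzymes that remove ubiquitin from proteins. Usp17lc (ENSMUSG00000058976.4, chr7:103415072-103419880, plus strand, 2 exons) lay 801 kb from a peak of 12768 bp that overlaps Trim6. Usp17ld (ENSMUSG00000057321.2, chr7:103249737-103252505, minus strand, 2 exons) lay 772 kb from a peak on its other side, in the olfactory receptor gene Olfr543. The stretch of 1.74 Mb between these peaks ranked 178 among the gaps, so that 0.771% of gaps were longer. It holds 108 protein-coding genes, of which 94 are olfactory receptors and 5 are the beta-globin genes, and these 2 Usp17l genes are the only ones of their family there. Neither of the 2 GENCODE isoforms of Usp17lc was marked.

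**Figure D2:**
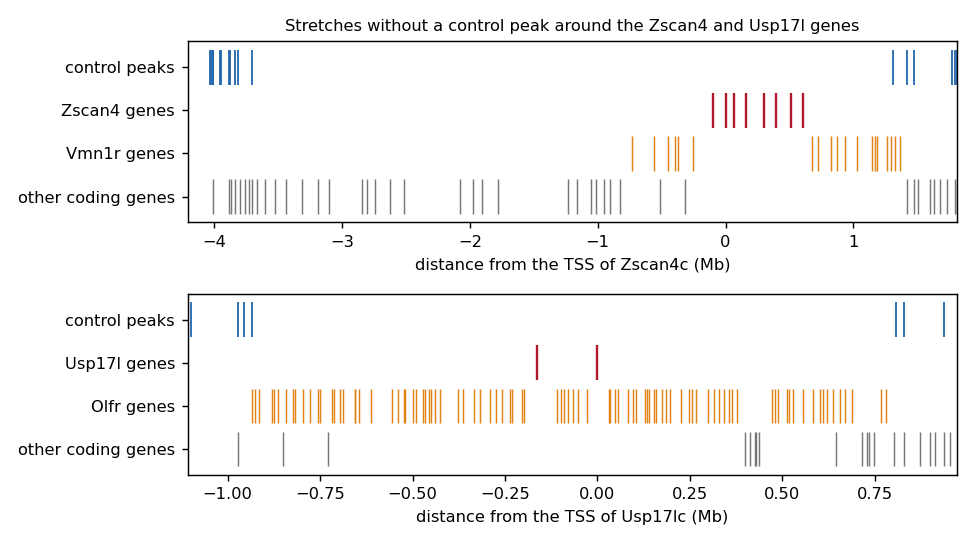
Stretches without a Control peak around Zscan4c (top) and Usp17lc (bottom), with the distance from the TSS of each in Mb on the horizontal axis, peaks as blue lines and the starts of coding genes as lines in rows by family. No peak falls in the 5.02 Mb around the Zscan4 genes or in the 1.74 Mb around the Usp17l genes, where most other genes are vomeronasal or olfactory receptors.

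Tcstv1 and Tcstv3 encode small proteins of a family named for its variable expression in 2-cell embryos, and lie near the end of chromosome 13. Tcstv1 (ENSMUSG00000096284.2, chr13:119893388-119894785, minus strand, 2 exons) had the nearest peak of the 9 genes, at 6.96 kb from its TSS. This peak of 1508 bp (chr13:119886321-119887828) began 5.56 kb past the 3′ end of the gene, overlapped no annotated gene and was the last of the chromosome. Tcstv3 (ENSMUSG00000095821.2, chr13:120316878-120318178, plus strand, 2 exons) had the same peak as its nearest, at 429 kb, and none on its other side. The 0.534 Mb from that peak to the chromosome end are 18.7% unassembled and hold 12 protein-coding genes, among them AF067061 and BC147527, both counted below as copies of the Tcstv family. Within 50 kb of the Tcstv3 TSS, 45.3% of all 100-base words contained unassembled bases, all on the side of the chromosome end, so a part of its surroundings could not show a peak. The ±1 kb windows of Tcstv1 and Tcstv3 were 97.5% identical, but only Tcstv1 had a peak within 50 kb. In this the genes cannot be compared, since the unassembled bases lie downstream of Tcstv3, the side on which the Tcstv1 peak lies.

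Zfp352, a zinc finger gene that is expressed in the early embryo, does not lie in a cluster of annotated copies. Its promoter is shown because a short word recurs through its upstream part, with capitals marking each GACAACACAC (RefSeq, GRCm38.p6, chr4:90218570-90218869, plus strand).
Zfp352 promoter: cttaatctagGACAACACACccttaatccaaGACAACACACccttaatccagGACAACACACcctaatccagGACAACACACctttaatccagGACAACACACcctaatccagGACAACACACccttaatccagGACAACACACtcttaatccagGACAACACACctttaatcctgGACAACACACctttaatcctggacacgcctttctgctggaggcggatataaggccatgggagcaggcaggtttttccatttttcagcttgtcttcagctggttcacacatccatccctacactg

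The word occurred 9 times, and only 2.01% of all RefSeq promoters held any 10-base word 8 or more times. Zfp352 (ENSMUSG00000070902.5, chr4:90218820-90225702, plus strand, 2 exons) lay 16.5 kb from a peak at chr4:90235319-90235585, which is 9.62 kb past the 3′ end of the gene and overlaps no annotated gene. From the start of its second isoform the distance was 11.7 kb. At 267 bp this peak was among the narrowest of the list, with 0.892% of peaks narrower. On the other side the next peak was 494 kb away, nearest to Dmrta1, and Zfp352 was the only protein-coding gene in the 0.51 Mb between them.

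Tdpoz4 belongs to a family of genes with MATH and BTB/POZ domains, which in related proteins recruit substrates for ubiquitination. Tdpoz4 (ENSMUSG00000060256.1, chr3:93796398-93797510, plus strand, 1 exon) lay 21.6 kb from a peak of 2901 bp at chr3:93817998-93820898. This peak was outside annotated genes, between Tdpoz4 and Tdpoz3, and 5122 bp from Tdpoz3, whose TSS lay 5.12 kb away. The next peak on the other side was at 198 kb, nearest to S100a10. The 3 nearby peaks of Tcstv1, Zfp352 and Tdpoz4 thus all lay downstream of the gene and at no annotated promoter.

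**Figure D3:**
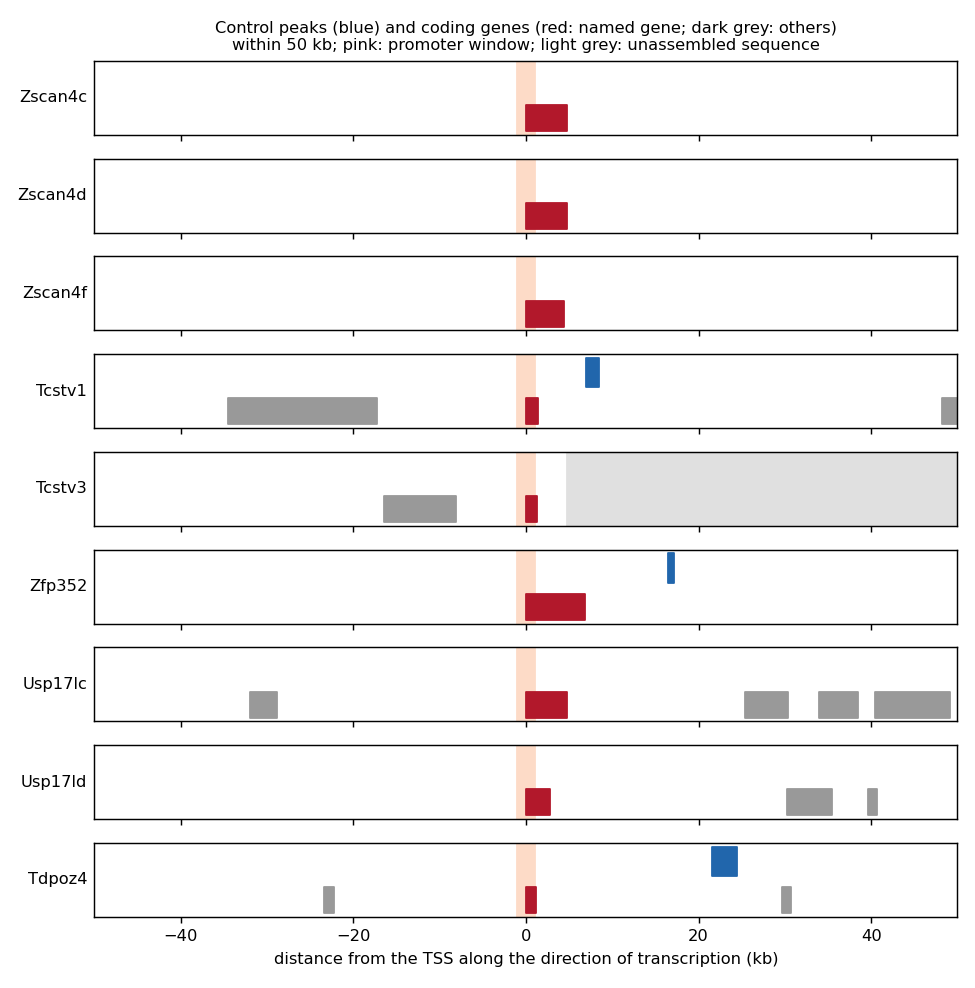
Surroundings of the 9 genes, with the distance from the TSS in kb along the direction of transcription on the horizontal axis, Control peaks in blue, the named gene in red and other coding genes in dark grey. No peak falls in the pink promoter windows, and 3 genes have 1 peak each within 50 kb, at 6.96, 16.5 and 21.6 kb downstream; light grey marks unassembled sequence beside Tcstv3.

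The sequences under a pair of these peaks are given since both carry a peak near a 2-cell stage gene but differ in how often they recur (GRCm38, plus strand, no capitals). They are the whole peak near Zfp352 (chr4:90235319-90235585) and the middle 300 bases of the peak near Tdpoz4 (chr3:93819298-93819597).
Zfp352 peak: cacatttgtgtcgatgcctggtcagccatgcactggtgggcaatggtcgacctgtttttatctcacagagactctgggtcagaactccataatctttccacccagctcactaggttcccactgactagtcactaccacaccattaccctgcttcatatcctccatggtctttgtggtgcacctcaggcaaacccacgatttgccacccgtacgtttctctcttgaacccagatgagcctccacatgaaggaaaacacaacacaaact
Tdpoz4 peak: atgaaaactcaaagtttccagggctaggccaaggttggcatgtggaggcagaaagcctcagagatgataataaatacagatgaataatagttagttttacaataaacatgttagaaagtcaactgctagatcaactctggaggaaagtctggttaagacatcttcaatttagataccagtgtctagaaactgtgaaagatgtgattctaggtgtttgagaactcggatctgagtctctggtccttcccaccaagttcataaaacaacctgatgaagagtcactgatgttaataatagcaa

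A search of the GRCm38 genome with blastn, counting matches of at least 80% identity over at least 50% of the query, found 141 further copies of the Zfp352 peak on 20 chromosomes, of which none reached 95% identity. Of these copies, 29 overlapped a Control peak by at least 1 bp, a share of 20.6% (95% Wilson interval 14.7 to 28%). The peaks covered 3.29% of the bases of the chromosomes. This is not a like measure, as a stretch of many bases meets a peak more often than a single base does. The peaks over these copies had a median width of 5361 bp, well above the median of all peaks, and copies of a single element are not independent. The Tcstv1 peak had 128 copies on 21 chromosomes, of which 9 lay under a peak (7.03%, 3.74 to 12.8%). The Tdpoz4 peak had only 4 copies, all on 1 chromosome and none under a peak. The peaks near Zfp352 and Tcstv1 thus had many diverged relatives across the genome, and the one near Tdpoz4 had few.

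Exact repeats, which bear on the mapping of reads, were few in all 3 peaks. They were counted as the share of 100-base words that occur more than once in the genome on either strand. This share was 4.54% in the Tcstv1 peak, 0% in the Zfp352 peak and 4.03% in the Tdpoz4 peak. Their GC contents of 43, 49.8 and 40% compare with a median of 49.5% over all peaks.

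At 8 of the 9 promoters the share was above that of each of these peaks. As peaks were called on reads that had passed the mapping-quality filter, this contrast was partly set in advance. In the ±1 kb windows, the share of repeated words was 70.6% for Zscan4f and 63.7% for Zscan4c, where the median word occurred 2 times. It was 34.4% for Usp17ld, 25.3% for Usp17lc and 24.1% for Tcstv1. Tcstv3 followed with 18.2%, Zscan4d with 14.7% and Tdpoz4 with 11.2%, and Zfp352 was at 0.7%. The median of 24.1% compares with 0% over all genes, and the mean of 29.2% with 6.46%. The window of Zscan4d, the least repetitive of the Zscan4 genes, was 91.6% identical to that of Zscan4c, whereas those of Zscan4c and Zscan4f were 98.2% identical. Within ±50 kb the share was 68.2% around Zscan4f, 53.7% around both Zscan4c and Tcstv1, and between 6.97% (Zfp352) and 24% (Usp17ld) around the other genes.

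The windows were also poor in CpG. The ratio of observed to expected CpG dinucleotides ranged from 0.05 for Usp17ld to 0.15 for Tdpoz4, with a median of 0.09 against 0.37 over all genes. Their GC content ranged from 37.6% for Zfp352 to 45.5% for Tdpoz4, with a median of 41.2% against 49.8%.

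Both properties went with the mark over all genes. Promoters without any repeated word were marked in 46.9% of 21683 cases, those with above 0 and under 10% in 37.1% of 3252, those with 10 to under 50% in 15.3% of 1123, and those with 50% or more in 1.33% of 1648 (22 promoters). Zfp352 belonged to the second of these classes, Zscan4c and Zscan4f to the last and the other 6 genes to the third. By CpG ratio, 4.94% of the 7877 promoters under 0.2 were marked, and all 9 genes fell in this class, against 83.2% of the 7866 promoters at 0.6 or more.

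With both properties combined, among promoters with a CpG ratio under 0.2 the marked share was 5.82% (5.26 to 6.43%) of 6121 with under 10% of repeated words, 4.11% (2.8 to 6%) of 608 with 10 to under 50%, and 0.697% (0.354 to 1.37%) of 1148 with 50% or more. In these classes, which hold 1, 6 and 2 of the 9 genes, a peak within 50 kb was present for 44.6, 28.6 and 5.49% of genes. The median distance to a peak in them was 64.6, 118 and 4291 kb. Read against these classes in place of all genes, the count of 0 marked of 9 does not set the 9 genes apart from other promoters of like sequence. How much of the lower share at repeated promoters is due to lost reads was not tested. Exact words are not a measure of mapping quality, since a copy that differs at a few bases can also lower it.

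**Figure D4:**
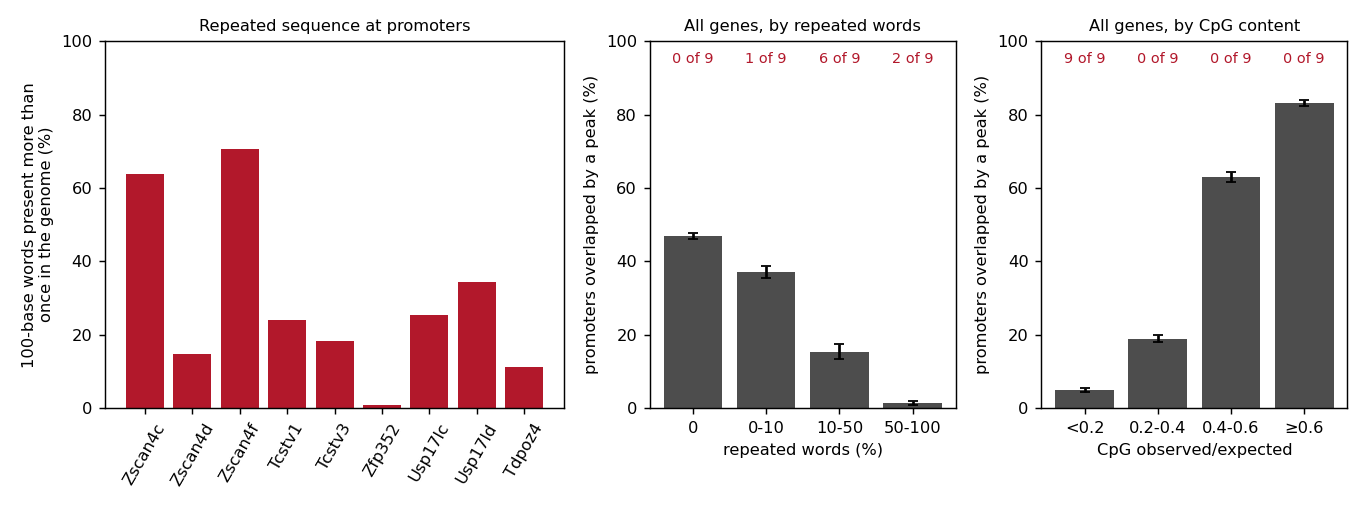
Left, share of 100-base words in the ±1 kb window of each of the 9 genes that occur more than once in the genome (%). Middle and right, share of promoters of all genes overlapped by a Control peak (%) by repeated words and by CpG ratio, with 95% Wilson intervals as error bars and the number of the 9 genes in each class in red; the marked share falls from 46.9 to 1.33% with repeated words, and all 9 genes are in the lowest CpG class, of which 4.94% were marked.

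Relatives of the 9 genes were counted in the same way. Of 22 named family copies, 13 were found in the annotation used, and none was marked against 41.7% of all genes, which leaves shares of up to 23.1% possible by a limit of 3 counts. The copies repeat a few loci and are not independent: Zscan4b and Zscan4e lie in the peak-free stretch of the other Zscan4 genes, AF067061 and BC147527 in that of Tcstv3, and Usp17la, Usp17lb and Usp17le share a stretch of 1045 kb. The median distance to a peak was 375 kb, and Tdpoz3 alone had a peak within 50 kb. Their share of repeated words ran from 0 to 87.6% with a median of 24.3%, with 5 copies under 10% and 5 at 50% or more. The 13 windows had CpG ratios of 0.05 to 0.22. Over the ±1 kb windows of the 9 genes, the genome search found 9 further copies for each Zscan4 gene (8 of them at 95% identity or more). It found 15 each for Tcstv1 and Tcstv3, 10 for Usp17ld, 4 for Usp17lc, 2 for Tdpoz4 and 1 for Zfp352. No copy lay under a peak. As the Zscan4 windows match each other, and those of Tcstv1 and Tcstv3 too, the search in part counted the same promoters again.

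Of 31 other genes known from the 2-cell embryo, such as Duxf3, the mouse Dux gene, 1 was marked (3.23%, 0.572 to 16.2%). This was Calcoco2, which encodes an autophagy receptor and had a window without repeated words and a CpG ratio of 0.24. A peak within 50 kb was present for 15 of the 31 (48.4%), and the median distance was 51.2 kb. Over all genes these values were 41.7% marked, 67.3% with a nearby peak and 9.71 kb. Repeated words made up a median of 14.1% of the windows of the 31 genes, and 24 of the 31 had a CpG ratio under 0.2. These genes are not all independent, so the interval is too narrow. Gm2016, Gm2022 and Gm2035 share a stretch of 554 kb without a peak, and Gm20767 and Gm21761 lie in that of Tcstv1 and Tcstv3.

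The counts for genes that act upstream of the 2-cell program stand beside the 41.7% of all genes. Of 5 activators, 3 were marked (60%, 23.1 to 88.2%), an interval that includes the share of all genes. These were Dppa2 and Dppa4, which encode partner proteins that bind the Dux promoter, and Nelfa, a subunit of the negative elongation factor. Dppa3, a maternal factor also known as Stella, was unmarked with a peak at 6.55 kb, and Duxf3 was unmarked with its nearest peak at 90.2 kb and 35.4% of repeated words in its window. Of 29 repressors, 27 were marked (93.1%, 78 to 98.1%), and all 29 had a peak within 50 kb (67.3% of all genes). The interval includes the 83.2% of all promoters with a CpG ratio of 0.6 or more. Some repressors had a lower ratio, and of all promoters 63% were marked at 0.4 to under 0.6 and 18.8% at 0.2 to under 0.4. The unmarked repressors were Rif1, a telomere and replication timing factor, and Dnmt1, the maintenance DNA methyltransferase. Dnmt1 lay 6.14 kb from a peak at the start used here, and 3 of its 4 annotated isoforms were marked. Rif1 had no marked isoform, its nearest peak was at 25.8 kb, and its window held no repeated word and had a CpG ratio of 0.82, a class in which 83.2% of promoters were marked. Of the 29 repressors, 28 had under 10% of repeated words, and their CpG ratios of 0.22 to 0.97 did not overlap those of the 9 genes.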

How the data were processed

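H3K27ac ChIP-seq had been made on 6 libraries of E14 mESCs (Control, NVP-2 and ActD, 2 replicates each; groups from the labels). Per the methods, the reads were cleared of adapters by the authors (Cutadapt), aligned to mm10 joined with the human genome (bwa meme) and freed of duplicates with Picard 2.9.1 and of mapping qualities under 10 with samtools 1.4. Peaks were called with LanceOtron, merged within 2 kb, and kept by height over input and by nearness to ATAC-seq summits. The values used from the deposited peak list are starts and ends in base pairs, called on both Control replicates together, and the list holds no signal, count or p-value. Signal tracks and reads were not used here. A gene whose reads map to several copies can lose its peak at the mapping-quality step.

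Peaks were set against GENCODE release M21 (GRCm38), an earlier release than the one named in the methods: 27706 protein-coding and lincRNA genes with 67283 transcripts, 1 TSS per gene from the isoform of longest genomic span. Overlap, the nearest peak, exact 100-base words over the 66 primary sequences, copies found with blastn 2.17.0 (dc-megablast, e-value 1e-10) and pairwise identities (Biopython 1.88) were computed in Python 3.11.15 with numba 0.67.0, scipy 1.17.1, pandas 2.3.3 and numpy 2.4.6. Figures were drawn with matplotlib 3.10.9. Functions were tested on simulated data. No test was made: counts and medians stand beside the same over all genes.

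The 9 genes and the lists (family copies, other 2-cell genes, activators, repressors, pluripotency markers) were chosen with earlier results of these data known. Named were all 9 genes, the gene at or nearest to each flanking peak and, in each list, the smaller of the marked and unmarked classes where it held 5 or fewer, otherwise the first 5 of each class in alphabetical order. Genes outside this rule were named after their values were seen, as were the counts of marked copies. Dub1 and Dub1a are counted as Usp17la and Usp17lb, and Duxf3 and Zfp42 stand in 2 lists each. Alternatives were other windows, isoforms, peak widths, overlaps and word lengths.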

Additional observations from a re-analysis of the deposited data

How the results depend on the processing

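Of 49 alternatives, 47 stayed within 1.5 times the reported value. With windows of ±500 bp or ±2 kb, the TSS alone, any isoform, the isoform of longest spliced length, peaks at least 1 kb wide or an overlap of at least 500 bp, the count of marked promoters was 0 of 9 for the 2-cell stage genes and 0 of 13 for their family copies. For these 2 lists the 4 stricter settings (±500 bp, the TSS alone, wider peaks and longer overlap) could only return 0 again, so 8 of the 47 say nothing about stability. The count was 1 of 31 for the other 2-cell genes, 3 of 5 for the activators, and 26 to 28 of 29 for the repressors, while the background over all genes ran from 37.4 to 43.6%. Genes with a nearby peak numbered 3 of 9 within 25 kb (58.7% of all genes) and within 100 kb (76.4%), and 2 of 9 with peaks at least 1 kb wide (63.3%), which leaves out the peak near Zfp352. The median share of repeated words moved beyond 1.5 times, from 24.1% to 51.5% with words of 50 bases and to 7.15% with words of 200 bases, as a shorter word matches more often by construction. No paired analysis was possible because the peaks are a single list for both Control replicates, and for the same reason no replicate could be left out. From the peak list alone, a weak peak below the authors' thresholds cannot be told apart from no signal, and signal tracks were not used here.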

Other observations

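The 3 peaks near 2-cell stage genes stand late in the deposited list of 22973 peaks: the Zfp352 peak on line 20836, the Tcstv1 peak on line 20850 and the Tdpoz4 peak on line 22861. The order of the list is not given in the sources used here. Of the 1489 promoters with at least 50% of repeated words and a CpG ratio under 0.4, 12 were marked (0.806%), and of the 49 with at least 50% of repeated words and a ratio of 0.6 or more, 8 were marked (16.3%, 95% Wilson interval 8.51 to 29%).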
